A study of Mus musculus with 8 samples.

Results

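The genes described here are the 10 members of the Myc, Mxd and Max network in mouse prostate epithelium: Myc, Mycn, Mycl, Max, Mxd1, Mxd4, Mxi1, Mnt, Mga and Mlx. They were found by mapping Ensembl identifiers to these symbols, 10 of 55335 identifiers in all. Their RNA was measured in 8 libraries of sorted prostate epithelium that carried EpCAM and CD24A and had low CD49F. There were 4 groups of 2 libraries, A and B. PPK ADT had the genotype PPK, which carries Kmt2cPC-/- on the PP background, with ADT treatment and an age of 6.5 months, and PP ADT had the PP background alone with the same treatment and age. PPK sham had Kmt2cPC-/- on the PP background and PP sham the PP background alone, both as sham at 3.5 months. All 4 groups thus shared the engineered PP background, and no group was wild type. Kmt2c encodes a histone H3 lysine methyltransferase that acts at enhancers. The labels do not spell out PC or its Cre driver, how ADT was done, or whether animals were pooled. ADT commonly stands for androgen deprivation therapy. Treatment and age changed together, so their effects cannot be told apart, and "ADT with age" names that comparison below.

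Myc, Mycn and Mycl are basic helix-loop-helix leucine zipper factors that pair with Max, bind E-boxes and activate genes of ribosome production, metabolism and growth. Mxd proteins, Mxi1 and Mnt pair with Max at the same boxes and recruit Sin3 and histone deacetylases, so they oppose Myc. Mga also binds Max and brings in a Polycomb complex that keeps germline genes silent, while Mlx pairs with the glucose-responsive factors Mlxip and Mlxipl and with some Mxd proteins. MYC is often gained in human prostate cancer, and Mxd1 is known for its rise in differentiating keratinocytes.

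The promoters of 6 members are shown because the E-box that these proteins share, CACGTG, is either present near their start (Max, Mlx, Mnt and Mxd4) or absent (Mxd1 and Mycl). The windows run from 250 bases before to 50 bases after a gene's start and come from RefSeq on GRCm38.p6, 5′ to 3′ on the gene's strand, with CACGTG in capitals. Max (chr12:76962199-76962498, minus strand), Mxd1 (chr6:86669110-86669409, minus strand) and Mycl (chr4:122995681-122995980, plus strand) are printed whole. The RefSeq start of Mycl lies downstream of the start in the annotation used for gene positions here, so its window falls inside the listed span of the gene. Excerpts of 60 bases are printed for Mlx (chr11:101087223-101087282, plus strand), Mnt (chr11:74830774-74830833, plus strand) and Mxd4 (chr5:34187897-34187956, minus strand).
Max: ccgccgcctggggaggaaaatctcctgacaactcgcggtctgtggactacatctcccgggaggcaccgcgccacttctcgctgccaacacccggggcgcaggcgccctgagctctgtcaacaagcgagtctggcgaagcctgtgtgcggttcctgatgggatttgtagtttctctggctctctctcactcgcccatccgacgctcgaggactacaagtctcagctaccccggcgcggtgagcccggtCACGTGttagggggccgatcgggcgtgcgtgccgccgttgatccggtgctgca
Mxd1: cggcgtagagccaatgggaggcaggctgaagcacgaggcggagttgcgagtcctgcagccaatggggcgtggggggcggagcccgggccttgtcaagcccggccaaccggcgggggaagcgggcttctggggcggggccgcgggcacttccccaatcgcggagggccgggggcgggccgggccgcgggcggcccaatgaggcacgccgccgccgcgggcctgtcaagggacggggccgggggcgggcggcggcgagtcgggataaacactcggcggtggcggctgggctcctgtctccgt
Mycl: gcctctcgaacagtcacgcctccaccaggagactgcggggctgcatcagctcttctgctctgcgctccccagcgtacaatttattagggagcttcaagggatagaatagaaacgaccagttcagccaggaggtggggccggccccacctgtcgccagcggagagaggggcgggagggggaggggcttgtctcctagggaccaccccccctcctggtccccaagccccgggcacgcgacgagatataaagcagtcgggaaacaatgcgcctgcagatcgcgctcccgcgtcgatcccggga
Mlx: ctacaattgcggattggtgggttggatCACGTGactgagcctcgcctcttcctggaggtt
Mnt: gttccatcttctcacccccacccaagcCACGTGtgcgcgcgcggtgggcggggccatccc
Mxd4: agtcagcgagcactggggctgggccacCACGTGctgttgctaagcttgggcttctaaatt
CACGTG reads the same on both strands, so 1 search covers both. It was found in 4 of the 9 members with a window (44.4%), which were Max, Mlx, Mnt and Mxd4, against 8.1% of 27025 genes with a window. The box began 3 bases before the start of Max and ran across it, and it began 40 bases before that of Mlx, 123 before that of Mnt and 219 before that of Mxd4. The windows of Mxd1, Mycl, Mycn, Mga and Mxi1 did not hold these letters, and Myc was not among the windows. Of 44 listed genes known to be activated by Myc, 38 had a window, and 13 of these genes held the box (34.2%). It was in 2 of 6 listed targets of the Mlx partners with a window (33.3%) and in 0 of 11 listed proliferation genes with one. The match describes letters in a window and is not a measured binding site.

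The files gave FPKM, fragments divided by the length of a gene and by the fragments of its library, so levels can be set beside each other between genes. They held no counts, so sequencing depth is unknown and no counting interval can be stated. Summed FPKM ranged from 284014.5 in PP ADT A to 333977.5 in PPK ADT B, and libraries of a group correlated at 0.986 to 0.988 over genes, against 0.805 to 0.958 between groups. The targeted gene Kmt2c had 6.6 and 6.36 FPKM in PPK ADT against 10.3 and 9.33 FPKM in PP ADT, and 8.67 and 8.15 FPKM in PPK sham against 13.3 and 13.9 FPKM in PP sham. Kmt2c was thus lower in PPK at both time points, and it was not absent. The labels do not give the part of the gene that was deleted. Differences below are of log2(FPKM + 1), which understates the change of low genes, and a gene passed with an adjusted p under 0.05 from limma (Benjamini-Hochberg over 14000 genes tested). The labels do not say whether A and B were separate animals, so a p-value measures only the spread between these libraries, which may be technical. In bulk RNA, fewer cells of a type and less RNA per cell cannot be told apart.

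**Figure D1:**
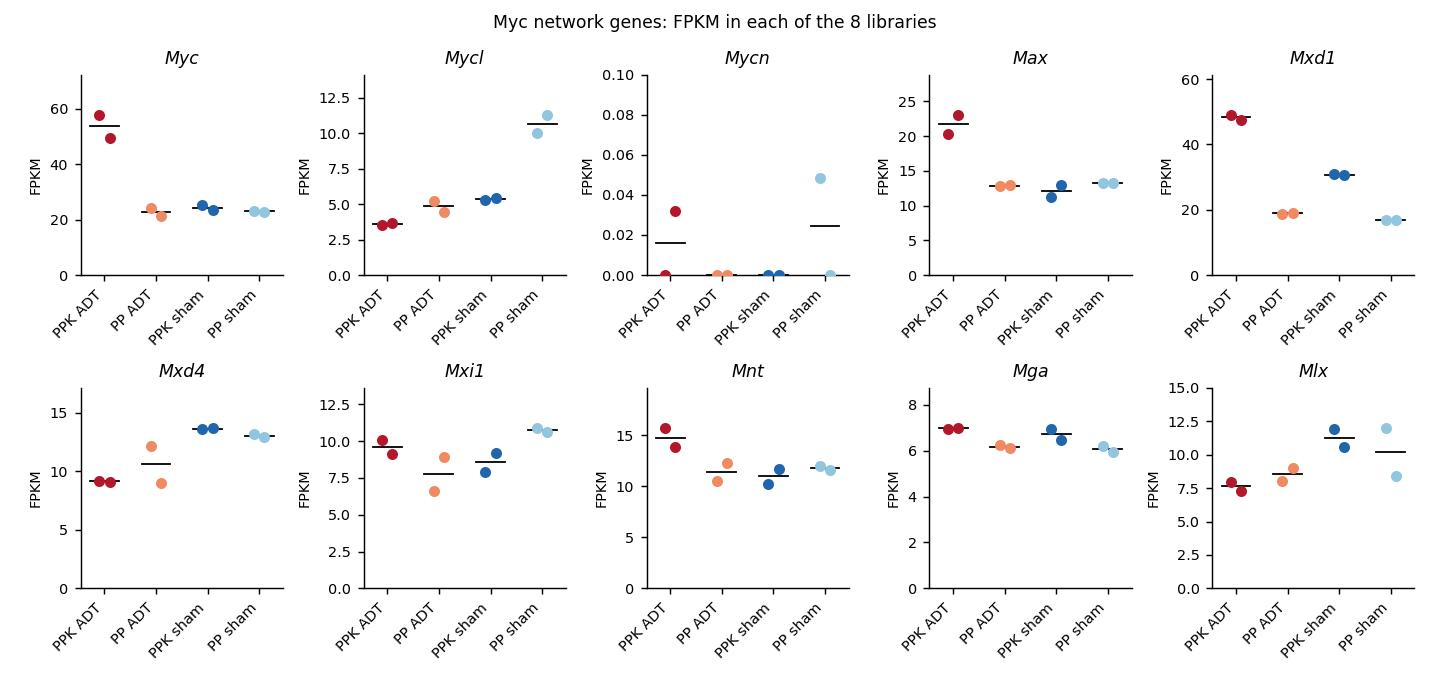
FPKM of the 10 members in each of the 8 libraries, 1 panel per gene with its own linear axis starting at 0; points are libraries A and B and bars are group means, with groups ordered PPK ADT, PP ADT, PPK sham and PP sham. Myc and Max stand apart in PPK ADT, Mxd1 is high in PPK at both times, and Mycl is highest in PP sham.

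Myc was high in PPK ADT and spanned 21.3 to 25.2 FPKM in the other 3 groups. Myc (chr15:61985391-61990374, plus strand), the broadly used activator of growth genes, had 57.8 and 49.5 FPKM in PPK ADT, against 24.2 and 21.3 FPKM in PP ADT. It had 25.2 and 23.4 FPKM in PPK sham, against 23.1 and 22.7 FPKM in PP sham. Both PPK ADT libraries lay above the other 6. The ratio of means was 2.36 for PPK over PP in ADT, with a log2 difference of 1.20 ± 0.09 (SE, n = 2 libraries per group) and a limma adjusted p of 4.49e-05. ADT with age in PPK gave 1.11 ± 0.09 with a limma adjusted p of 6.24e-05. Neither PPK against PP in sham (0.08, 95% interval -0.14 to 0.30) nor ADT with age in PP (-0.01, -0.23 to 0.20) passed. The genotype effect was larger in ADT than in sham by 1.12 ± 0.13 (limma adjusted p = 0.000457).

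Mycl was lowest in PPK ADT, where Myc was highest, and Mycn was hardly detected. Mycl (chr4:122995652-123002485, plus strand), which binds Max as Myc does and is amplified in some human lung cancers, had 3.52 and 3.69 FPKM in PPK ADT against 5.23 and 4.45 FPKM in PP ADT. It had 5.28 and 5.41 FPKM in PPK sham against 10 and 11.3 FPKM in PP sham. The PP sham libraries were the highest and the PPK ADT libraries the lowest, and no compared pair of groups overlapped. Mycl fell in PPK against PP in sham by 0.88 ± 0.09 on the log2 scale (limma adjusted p = 0.000721) and with ADT and age in PP by 1.00 ± 0.09 (limma adjusted p = 0.000205). The fall with ADT and age in PPK was 0.46 ± 0.09 (limma adjusted p = 0.0041). In ADT the genotype difference was -0.34 ± 0.09 with a limma adjusted p of 0.0164, and it did not pass without PPK ADT A (-0.31, limma adjusted p = 0.0744) or without PP ADT A (-0.24, limma adjusted p = 0.0827). The genotype effect on Mycl was less negative in ADT than in sham by 0.54 ± 0.13 (limma adjusted p = 0.012). Mycn (chr12:12936093-12941914, minus strand), known for its amplification in neuroblastoma and in neuroendocrine prostate cancer of humans, was listed at 0.0319 FPKM in PPK ADT B, at 0.0485 FPKM in PP sham A and at 0 in the other 6 libraries. It was below the filter of 1 FPKM and was not tested, so 9 of the 10 members were tested.

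Max rose in the group where Myc was high. Max (chr12:76937269-76962201, minus strand), the partner without which Myc, Mxd and Mga proteins do not bind E-boxes, had 20.3 and 23.1 FPKM in PPK ADT against 12.8 and 12.9 FPKM in PP ADT. It had 11.2 and 12.9 FPKM in PPK sham against 13.2 and 13.3 FPKM in PP sham. The PPK ADT libraries lay above all others, which spanned 11.2 to 13.3 FPKM. The ratio of means for PPK over PP in ADT was 1.69, with a log2 difference of 0.71 ± 0.083 (limma adjusted p = 0.000395). ADT with age in PPK gave 0.80 ± 0.083 (limma adjusted p = 0.000203), and the genotype effect differed between ADT and sham by 0.84 ± 0.12 (limma adjusted p = 0.00121). PPK against PP in sham (-0.13, 95% interval -0.33 to 0.07) and ADT with age in PP (-0.04, -0.24 to 0.16) did not pass.

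Of the 9 tested members, Mxd1 was the one that differed over 1.5-fold between the genotypes at both times. Mxd1 (chr6:86647042-86669161, minus strand), a repressor that competes with Myc for Max, had 49.1 and 47.4 FPKM in PPK ADT against 18.8 and 19.1 FPKM in PP ADT. It had 31.0 and 30.5 FPKM in PPK sham against 16.8 and 16.9 FPKM in PP sham. All 4 PPK libraries were above all 4 PP libraries, and libraries of a group differed by less than 2 FPKM. The ratio of means was 2.54 in ADT (log2 difference 1.30 ± 0.036, limma adjusted p = 4.79e-07) and 1.82 in sham (0.83 ± 0.036, limma adjusted p = 2.02e-05). The genotype effect was larger in ADT by 0.47 ± 0.05 (limma adjusted p = 0.000335). Mxd1 was higher with ADT and age in PPK by 0.63 ± 0.036 (limma adjusted p = 1.04e-05). In PP the change was 0.16 ± 0.036 (limma adjusted p = 0.012), and it did not pass without PP ADT B (limma adjusted p = 0.0562) or without PP sham A (limma adjusted p = 0.0558).

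The other repressors that pair with Max changed less than Mxd1 between the genotypes in both ADT and sham. Mnt (chr11:74830920-74845725, plus strand), a Max partner expressed in most cells, had 15.7 and 13.8 FPKM in PPK ADT against 10.5 and 12.3 FPKM in PP ADT, and 10.2 and 11.7 FPKM in PPK sham against 12.0 and 11.6 FPKM in PP sham. Its PPK ADT libraries were above all others. The log2 difference of PPK against PP in ADT was 0.34 ± 0.10 (limma adjusted p = 0.0252), that of ADT with age in PPK was 0.40 ± 0.10 (limma adjusted p = 0.0132), and the difference of genotype effects was 0.45 ± 0.14 (limma adjusted p = 0.0382). These 3 calls were not firm. With all 8 libraries, the first and the last did not pass without the filter (limma adjusted p = 0.0577 and 0.0844). Nor did they under median-of-ratios scaling (limma adjusted p = 0.0699 and 0.0747). The first ended without PPK ADT A (limma adjusted p = 0.13) or PP ADT A (limma adjusted p = 0.127), and the next without PPK ADT A (limma adjusted p = 0.0744) or PPK sham A (limma adjusted p = 0.0716). The difference of effects ended without any 1 of PPK ADT A, PPK sham A, PP ADT A or either PP sham library, at limma adjusted p of 0.0729 to 0.11, and with a replicate block at 0.0555.

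Mxd4 (chr5:34173883-34187720, minus strand), another Mxd repressor, had 9.19 and 9.09 FPKM in PPK ADT against 12.2 and 8.97 FPKM in PP ADT, and 13.6 and 13.7 FPKM in PPK sham against 13.2 and 12.9 FPKM in PP sham. It fell with ADT and age in PPK by 0.53 ± 0.12 on the log2 scale (limma adjusted p = 0.00856), and it passed in no other comparison. The 2 PP ADT libraries spanned the PPK ADT values, and their spread bore on the calls. Without PP ADT B the genotype difference in ADT was -0.38 (limma adjusted p = 0.00294) and the difference of genotype effects -0.44 (limma adjusted p = 0.00543). Without PP ADT A the change with ADT and age in PP was -0.50 (limma adjusted p = 0.0021).

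Mxi1 (chr19:53310518-53375810, plus strand), a repressor of the Mxd family that also pairs with Max, had 10.1 and 9.13 FPKM in PPK ADT against 6.6 and 8.9 FPKM in PP ADT, and 7.92 and 9.22 FPKM in PPK sham against 10.9 and 10.6 FPKM in PP sham. The PP sham libraries were the highest. The change with ADT and age in PP was -0.44 ± 0.13 (limma adjusted p = 0.0368) and the difference of genotype effects 0.59 ± 0.19 (limma adjusted p = 0.0383). With all 8 libraries, neither passed without the filter, under median-of-ratios scaling or under quantile normalization (limma adjusted p 0.0526 to 0.0888). When PP ADT and PP sham alone were fitted, the change in PP did not pass either (-0.44, limma adjusted p = 0.0653). The change in PP ended without either PPK ADT library, PP ADT A or either PP sham library (-0.46 to -0.25, limma adjusted p 0.0516 to 0.132). The difference ended without either PPK ADT library, PPK sham A, PP ADT A or either PP sham library (0.40 to 0.65, limma adjusted p 0.0618 to 0.109). Without PP ADT B, PPK exceeded PP in ADT by 0.48 (limma adjusted p = 0.0138), against 0.29 (limma adjusted p = 0.109) with all libraries.

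Mga passed in no comparison, and Mlx was lower in PPK ADT than in PPK sham. Mga (chr2:119897228-119969581, plus strand), the Max partner of the Polycomb complex, had 6.96 and 6.99 FPKM in PPK ADT against 6.25 and 6.10 FPKM in PP ADT, and 6.93 and 6.48 FPKM in PPK sham against 6.19 and 5.96 FPKM in PP sham. All 4 PPK libraries were above all 4 PP libraries, with a ratio of means of 1.13 in ADT and 1.10 in sham. The 95% interval of the genotype difference was 0.01 to 0.29 in ADT (limma adjusted p = 0.063) and -0.02 to 0.26 in sham (limma adjusted p = 0.175). Mlx (chr11:101087277-101092207, plus strand), the partner of Mlxip and Mlxipl, had 7.92 and 7.32 FPKM in PPK ADT against 8.04 and 9.01 FPKM in PP ADT, and 11.9 and 10.6 FPKM in PPK sham against 12.0 and 8.43 FPKM in PP sham. Its PP sham libraries were far apart. Mlx fell with ADT and age in PPK by 0.51 ± 0.15 (limma adjusted p = 0.0242). This call ended without the filter (limma adjusted p = 0.0602), and also without PPK ADT A, PPK ADT B or PPK sham A. Without PP sham B the change in PP passed (-0.45, limma adjusted p = 0.0251), and without PP sham A the difference of genotype effects passed (-0.52, limma adjusted p = 0.0264). Mlx shares 385 exonic bases with Psmc3ip on the other strand, which was at 0.422 to 0.825 FPKM in the group means.

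**Figure D2:**
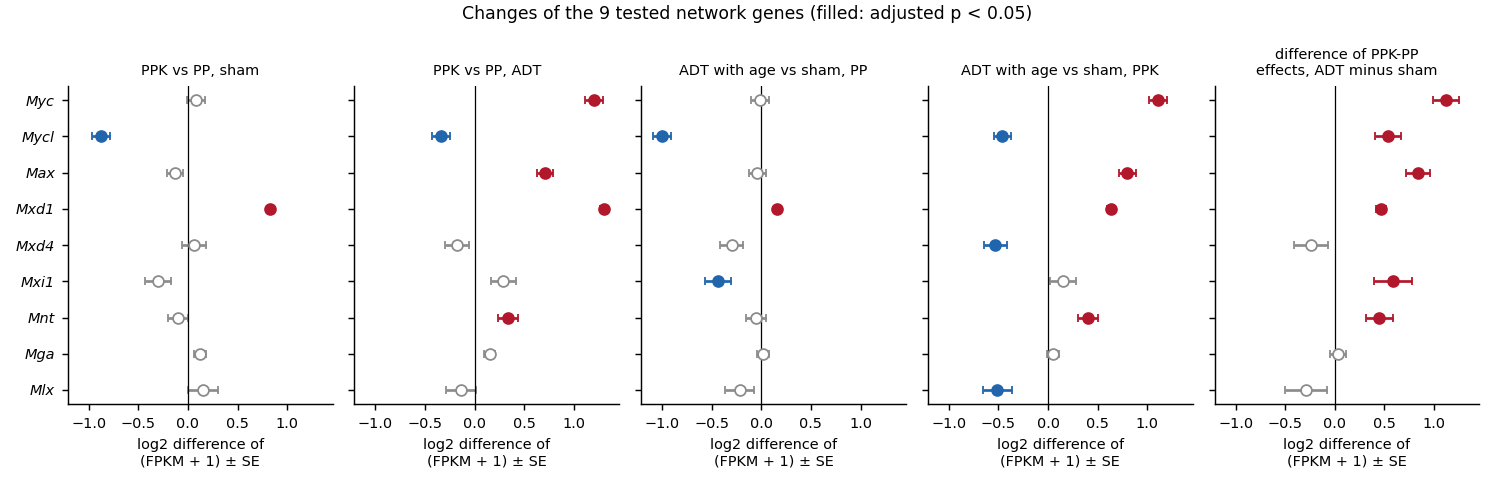
Log2 difference of FPKM + 1 (horizontal axis) with its standard error for the 9 tested members (rows) in the 5 comparisons (panels); filled points passed an adjusted p under 0.05 and open points did not. Myc and Max lie near 0 in sham and in PP and to the right in the panels with PPK ADT, and Mycl lies left of 0 in the 4 comparisons of groups.

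More members passed between the genotypes in ADT than in sham, as did more of all genes. In sham, 2 of 9 members passed for PPK against PP, where 28.6% of all genes passed. Mxd1 was higher (13.7% of genes were) and Mycl lower (14.9% were), both at least 1.5-fold, which 10.4% of genes reached. In ADT, 5 of 9 passed, against 59.6% of genes. Of these Myc, Max, Mxd1 and Mnt were higher (32.5% of genes) and Mycl lower (27.1% of genes), and Myc, Max and Mxd1 reached 1.5-fold, as 34.1% of genes did. Without PPK ADT A or without PP ADT A 3 members passed, and without PP ADT B 7 did.

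ADT with age in PP passed for 3 of 9 members, against 44.2% of genes. Mxd1 was higher (19.1% of genes) and Mycl and Mxi1 lower (25.1% of genes), with Mycl at 1.5-fold or more, which 19.0% of genes reached; without PP sham A 1 member passed. In PPK 7 of 9 passed, against 62.6% of genes. Myc, Max, Mxd1 and Mnt were higher (31.9% of genes) and Mycl, Mxd4 and Mlx lower (30.7% of genes), with Myc, Max and Mxd1 at 1.5-fold or more, which 36.6% of genes reached. The genotype effect differed between ADT and sham for 6 of 9 members, against 52.8% of genes. All 6 were more positive in ADT, as were 30.0% of genes, none was more negative, as 22.8% of genes were, and 3 reached 1.5-fold (Myc, Max and Mxi1), as 36.7% of genes did. The median log2 difference of the 9 members was 0.06 for PPK against PP in sham (-0.02 over all genes), 0.29 in ADT (0.05), -0.05 for ADT with age in PP (-0.07), 0.15 in PPK (0.00) and 0.47 for the difference of effects (0.08). The members passing were fewer than the share of all genes in both genotype comparisons and in ADT with age in PP, and more in the other 2 comparisons. The comparisons share libraries, so their calls are not independent.

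The order of levels was led by Myc and Mxd1. Myc was first and Mxd1 next in PPK ADT, PP ADT and PP sham, and their libraries did not overlap within a group. In PPK sham Mxd1, at a mean of 30.7 FPKM, was above Myc at 24.3 FPKM. Max came next in PPK ADT, PP ADT and PP sham and followed Mxd4 in PPK sham, and it overlapped its next neighbour in both sham groups. Mnt, Mxd4, Mlx and Mxi1 followed without a gap in PP ADT, and Mxi1, Mycl and Mlx did so in PP sham. Mga and Mycl were the lowest of the tested members except in PP sham, where Mycl overlapped Mxi1 and Mlx.

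The sum of Myc, Mycn and Mycl was 57.2 ± 5.72 FPKM in PPK ADT and 27.6 ± 2.60 FPKM in PP ADT (SD, n = 2 each), and 29.6 ± 1.21 FPKM in PPK sham and 33.6 ± 0.609 FPKM in PP sham. Myc made up 93.6% of that sum in PPK ADT and 82.5% in PP ADT, and 81.9% in PPK sham and 68.2% in PP sham. So Myc weighed more in PPK at both times, and in sham Mycl was lower while Myc did not pass the test. The repressor members Mxd1, Mxd4, Mxi1, Mnt and Mga summed to 88.7 ± 3.22 FPKM in PPK ADT and 54.9 ± 0.667 FPKM in PP ADT, and to 70.6 ± 1.5 FPKM in PPK sham and 58.6 ± 0.892 FPKM in PP sham. Mxd1 made up 72.0% of the Mxd1, Mxd4 and Mxi1 sum in PPK ADT and 50.8% in PP ADT, and 58.0% in PPK sham and 41.4% in PP sham.

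The balance of activators and repressors differed in direction between ADT and sham. The ratio of the Myc family to the repressor members was 0.674 and 0.616 in PPK ADT against 0.540 and 0.464 in PP ADT, and 0.438 and 0.402 in PPK sham against 0.560 and 0.587 in PP sham. It was thus higher in PPK than in PP in ADT and lower in sham. The ratio of Myc to Mxd1 was 1.18 and 1.04 in PPK ADT against 1.28 and 1.11 in PP ADT, which overlapped, and 0.814 and 0.766 in PPK sham against 1.37 and 1.34 in PP sham. These sums and ratios are descriptions without a test, since the members were chosen with results known.

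**Figure D3:**
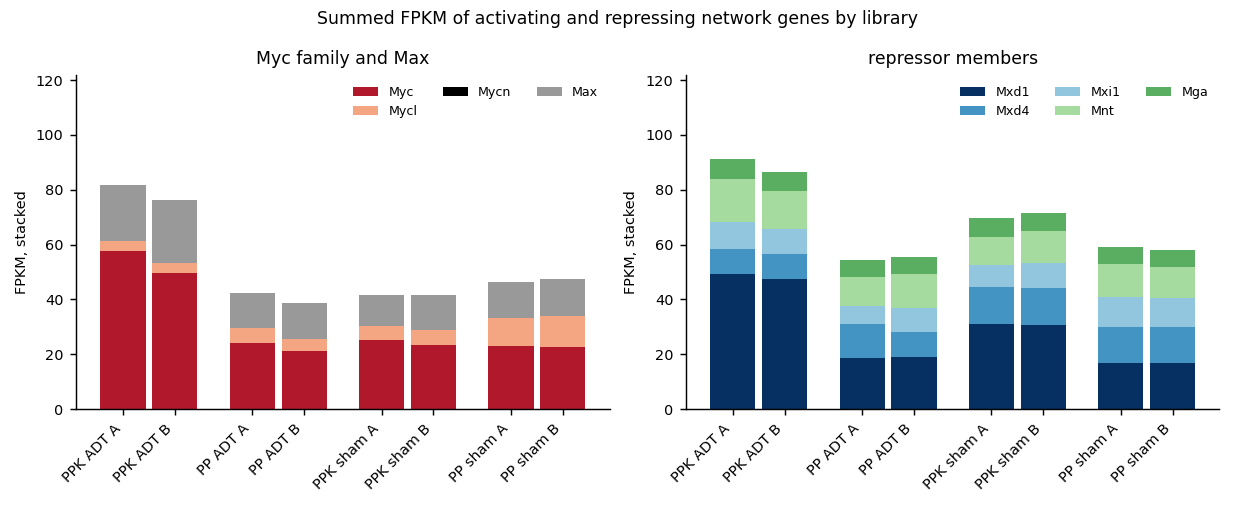
Summed FPKM per library (bars starting at 0, stacked by gene), with Myc, Mycl, Mycn and Max on the left and the repressor members Mxd1, Mxd4, Mxi1, Mnt and Mga on the right, libraries ordered PPK ADT, PP ADT, PPK sham and PP sham. The repressor members reach 91.0 and 86.4 FPKM in PPK ADT and stay between 54.4 and 71.7 FPKM in the other libraries, and most of the excess is Mxd1.

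Of 5 further network genes, Bmyc changed most. Bmyc, a rodent gene related to the amino-terminal part of Myc that lacks the DNA-binding part, had 6.44 and 6.77 FPKM in PPK ADT against 8.19 and 6.93 FPKM in PP ADT, and 39.4 and 40.0 FPKM in PPK sham against 20.9 and 19.3 FPKM in PP sham. The sham groups were far above both ADT groups, and PPK was above PP in sham. PPK against PP gave 0.95 ± 0.079 in sham (limma adjusted p = 0.0003) and -0.17 ± 0.079 in ADT (limma adjusted p = 0.115). The ADT comparison passed without PP ADT B (-0.27, limma adjusted p = 0.0205) and, with all libraries, under median-of-ratios scaling (-0.26, limma adjusted p = 0.0323). ADT with age lowered Bmyc by 1.30 in PP (limma adjusted p = 3.36e-05) and by 2.42 in PPK (limma adjusted p = 8.27e-07), and the genotype effects differed by -1.12 ± 0.11 (limma adjusted p = 0.000254). Mlxip, the partner of Mlx that senses glucose, had 8.22 and 9.41 FPKM in PPK ADT against 6.21 and 6.16 FPKM in PP ADT, and 9.08 and 7.20 FPKM in PPK sham against 6.90 and 10.4 FPKM in PP sham. It passed in no comparison in the fit of all 4 groups, and PPK against PP in ADT passed when those groups alone were fitted (0.45, limma adjusted p = 0.00947). Without PP sham A it did in 3 (PPK against PP in ADT at 0.45, limma adjusted p = 0.0208; ADT with age in PP at -0.67, limma adjusted p = 0.0185; the difference at 0.78, limma adjusted p = 0.0193), and without PP sham B in the first alone (0.45, limma adjusted p = 0.0211). Mxd3 and Mlxipl stayed below 1 FPKM in every library and Mycs was listed at 0 in all of them, so these 3 were not tested.

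Genes known to be activated by Myc were higher as a group in PPK ADT. Of 44 such growth genes, all tested, 42 were higher and none lower in PPK against PP in ADT, where 32.5% of all genes were higher, with a median log2 difference of 0.94, against 0.05 over all genes. In sham 4 were higher and 2 lower with a median of 0.00, and 3 passed without PP sham B. ADT with age gave 40 higher and none lower in PPK (median 0.74), where 31.9% of all genes were higher and 30.7% lower. In PP it gave 5 higher and 10 lower (median -0.05), where 19.1% of all genes were higher and 25.1% lower. The difference of genotype effects was positive for 41 and negative for none (median 0.87), against 30.0% and 22.8% of all genes. In sham 13.7% of all genes were higher and 14.9% lower. The growth gene counts in sham and in PP lay below these shares. The balance in PP turned with the scaling, to 9 higher and 7 lower under median-of-ratios scaling. The sum of basal markers was also higher in PPK ADT, at 5754 to 5823 FPKM against 842 to 853 FPKM in PP ADT, and their part in these counts was not tested. The list was written with earlier results of these data known and is described by its counts only.

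The 4 growth genes with the smallest adjusted p for PPK against PP in ADT were Ldha, Npm1, Hk2 and Hspe1. The largest change among the growth genes was that of Shmt2, a mitochondrial enzyme of serine use, at 1.82. Npm1, a nucleolar chaperone of ribosome assembly, averaged 229 FPKM in PPK ADT and 82.4 FPKM in PP ADT (log2 difference 1.46 ± 0.04). Ldha, which makes lactate from pyruvate, averaged 228 FPKM in PPK ADT and 102 FPKM in PP ADT (1.15 ± 0.029). Hk2, the first enzyme of glycolysis, averaged 144 FPKM in PPK ADT and 75.0 FPKM in PP ADT (0.93 ± 0.026). Each of these 3 was higher in both PPK ADT libraries, with limma adjusted p of 4.75e-07 for Npm1, 3.44e-07 for Ldha and 5.33e-07 for Hk2. Hspe1, a mitochondrial chaperonin, averaged 58.8 FPKM in PPK ADT and 26.3 FPKM in PP ADT (1.13 ± 0.045, limma adjusted p = 2.47e-06). The ribosome assembly gene Rrp9 and the cap-binding factor gene Eif4e were the 2 that did not pass, Rrp9 at 0.37 and Eif4e at 0.10 (limma adjusted p = 0.065 and 0.818). Few of these genes passed in sham. In sham Ldha (0.28, limma adjusted p = 0.000752) and the cyclin gene Ccnd2 (0.90, limma adjusted p = 0.000263) were higher, and the transferrin receptor gene Tfrc was lower (-0.50, limma adjusted p = 0.00056). Tfrc was higher with ADT and age in PPK by 1.73 ± 0.048 (limma adjusted p = 4.1e-07), as was Ncl, a nucleolar protein gene, by 1.16 ± 0.043 (limma adjusted p = 1.53e-06). In PP the chaperonin genes were lower with ADT and age. Hspe1 fell by 0.83 ± 0.045 (limma adjusted p = 2.04e-05) and Hspd1, its chaperonin partner, by 0.56 ± 0.037 (limma adjusted p = 4.94e-05).

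The 7 genes known to be repressed by Myc did not move in 1 direction. In PPK against PP in ADT, 4 were higher and 1 lower (median 0.46, against 0.05 over all genes), where 32.5% of all genes were higher and 27.1% lower. Ndrg1, a stress-responsive gene, averaged 104 FPKM in PPK ADT and 55.7 FPKM in PP ADT (0.89 ± 0.041, limma adjusted p = 4.62e-06). Cdkn1a, which encodes the CDK inhibitor p21, averaged 109 FPKM in PPK ADT and 64.0 FPKM in PP ADT (0.76 ± 0.045, limma adjusted p = 1.47e-05). Both were thus higher where Myc was higher. Ndrg1 was also higher with ADT and age in PP (1.48 ± 0.041, limma adjusted p = 1.32e-06), where Myc did not pass. Cdkn1a did not pass in that comparison (0.03, limma adjusted p = 0.658). Gadd45a, a DNA damage-responsive gene, averaged 31.0 FPKM in PPK ADT and 71.1 FPKM in PP ADT (-1.17 ± 0.057, limma adjusted p = 6.16e-06). In sham 2 were higher and 2 lower, where 13.7% of all genes were higher and 14.9% lower. Fewer passed with some libraries left out.

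Of 19 cofactor genes of Myc and Mxd proteins, 9 were higher and 3 lower in PPK against PP in ADT (median 0.18, against 0.05 over all genes), where 32.5% of all genes were higher and 27.1% lower. With ADT and age in PPK 9 were higher and 1 lower (median 0.16, against 0.00), where 31.9% of all genes were higher and 30.7% lower. Hdac2, a histone deacetylase of the Sin3 complex, averaged 21.1 FPKM in PPK ADT and 9.69 FPKM in PP ADT (1.05 ± 0.082, limma adjusted p = 5.68e-05). Kat2a, an acetyltransferase brought in by Myc, averaged 16.5 FPKM in PPK ADT and 8.51 FPKM in PP ADT (0.88 ± 0.071, limma adjusted p = 6.28e-05). So genes of both the repressor and the activator side were higher. In sham Wdr5, a scaffold of histone methyltransferases, was the 1 gene that passed (-0.21, limma adjusted p = 0.0359), and it did not without any 1 of the 4 sham libraries.

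Of 18 tested genes that act on Myc protein stability, 7 were higher and 3 lower in PPK against PP in ADT (median 0.24, against 0.05 over all genes), a share near the 32.5% of all genes that were higher. Pim1, a kinase that stabilises Myc, averaged 106 FPKM in PPK ADT and 56.1 FPKM in PP ADT (0.91 ± 0.041, limma adjusted p = 4.39e-06), and 43.8 FPKM in PPK sham and 19.4 FPKM in PP sham (1.14 ± 0.041, limma adjusted p = 1.03e-05). Pim1 was therefore higher in PPK at both times, as Mxd1 was. Its relative Pim3 was lower in PPK in sham (-0.58 ± 0.058, limma adjusted p = 0.000608) and higher in PPK in ADT (0.52 ± 0.058, limma adjusted p = 0.000304). Cip2a, an inhibitor of the phosphatase that destabilises Myc, averaged 3.42 FPKM in PPK ADT and 0.909 FPKM in PP ADT (1.21 ± 0.11, limma adjusted p = 0.000104). In sham 1 gene was higher and 3 lower, where 13.7% of all genes were higher and 14.9% lower. Fewer passed with some libraries left out.

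Genes of the Mga complex and targets of the Mlx partners were counted as 2 lists, without a test between them. Of 9 tested genes of the Mga Polycomb complex, 2 were higher and none lower in PPK against PP in ADT, Tfdp1 (0.71 ± 0.083, limma adjusted p = 0.000404) and Cbx3 (0.40 ± 0.067, limma adjusted p = 0.00222), and under median-of-ratios scaling 2 were higher and 3 lower. The share that was higher lay below the 32.5% of all genes. All 18 germline genes that this complex silences were below 1 FPKM in every library, the highest being Meiob at 0.776 FPKM in PPK ADT B, and none was tested. Of 7 tested genes known as targets of the Mlx partners, 2 were higher and 4 lower in PPK against PP in ADT (median -0.20, against 0.05 over all genes), where 32.5% of all genes were higher and 27.1% lower. Txnip, a thioredoxin-binding protein that restrains glucose uptake, averaged 21.6 FPKM in PPK ADT and 34.0 FPKM in PP ADT (-0.63 ± 0.065, limma adjusted p = 0.000211), and 64.9 FPKM in PPK sham and 97.2 FPKM in PP sham (-0.58 ± 0.065, limma adjusted p = 0.00106). Its relative Arrdc4 fell with ADT and age by 1.51 ± 0.043 in PP (limma adjusted p = 1.42e-06) and by 2.18 ± 0.043 in PPK (limma adjusted p = 9.7e-08). Txnip was also lower in ADT in both genotypes. It fell by 1.49 ± 0.065 in PP (limma adjusted p = 7.69e-06) and by 1.54 ± 0.065 in PPK (limma adjusted p = 2.69e-06). The difference of genotype effects passed for Gpd1, a glycerol phosphate dehydrogenase, at -1.55 ± 0.079 (limma adjusted p = 1.14e-05).

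**Figure D4:**
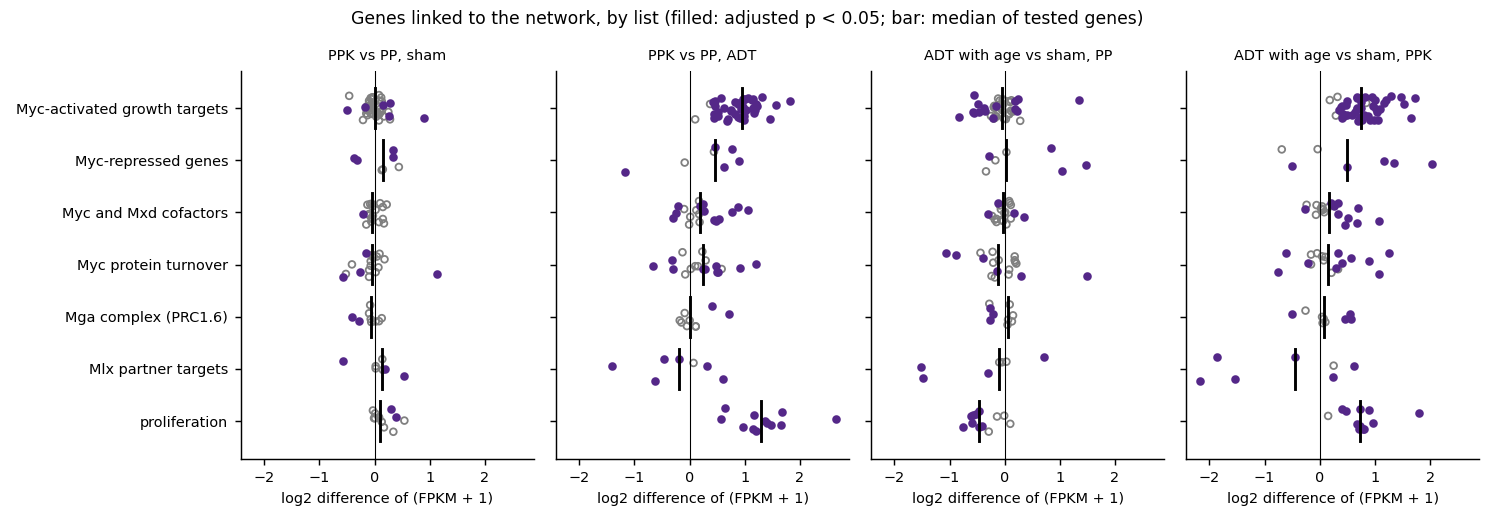
Log2 difference of FPKM + 1 (horizontal axis) of each tested gene in the linked gene lists (rows) for the 4 comparisons of groups (panels); filled points passed an adjusted p under 0.05, open points did not, and the bar is the list's median. The Myc-activated growth genes and the proliferation genes lie right of 0 in the panels with PPK ADT, with medians of 0.94 and 1.28 for PPK against PP in ADT. For ADT with age in PP their medians are -0.05 and -0.46, and the growth gene farthest right there is Ccnd2 at 1.35.

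Proliferation genes and cell type markers moved beside these changes. All 12 tested proliferation genes were higher in PPK against PP in ADT (median 1.28), where 32.5% of all genes were, with Mki67, a marker of cycling cells, at 10.5 FPKM in PPK ADT and 2.67 FPKM in PP ADT (1.65 ± 0.061, limma adjusted p = 1.8e-06). Rrm2, a ribonucleotide reductase subunit, averaged 14.3 FPKM in PPK ADT and 1.43 FPKM in PP ADT (2.65 ± 0.084, limma adjusted p = 8.97e-07). ADT with age gave 8 lower and none higher in PP, where 25.1% of all genes were lower and 19.1% higher. In PPK it gave 11 higher and none lower, where 31.9% of all genes were higher and 30.7% lower. In sham 2 were higher, a share near the 13.7% of all genes, and none lower, as 14.9% of all genes were. Fewer passed with some libraries left out.

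The summed FPKM of 5 basal markers was 5754 to 5823 in PPK ADT against 842 to 853 in PP ADT, and 1328 to 1339.9 in PPK sham against 870.2 to 877 in PP sham. The summed FPKM of 7 squamous markers was 2191 to 2219 in PPK ADT against 451 to 471 in PP ADT, and 317 to 325 in PPK sham against 559 to 566 in PP sham. Both sums were thus highest in PPK ADT. In ADT 4 of the 5 basal and all 6 tested squamous markers were higher in PPK, where 32.5% of all genes were. In sham 2 basal markers were higher in PPK and 2 lower, where 13.7% of all genes were higher and 14.9% lower. The basal sum in sham was mostly Krt15, which averaged 1273 FPKM in PPK sham and 809 FPKM in PP sham. Krt5 averaged 21.5 FPKM in PPK sham and 28.5 FPKM in PP sham. Single markers differed from the sums. Krt15 had 950.3 and 981 FPKM in PPK ADT against 1266 and 1279 FPKM in PPK sham, and Sprr1a had 519 and 545 FPKM in PPK ADT against 538 and 533 FPKM in PP sham. The sum of 6 luminal markers was 1240.3 to 1266 FPKM in PPK ADT against 4869 to 4929 FPKM in PP ADT. In ADT 5 of the 6 were lower in PPK, where 27.1% of all genes were. The luminal sum was 3978 to 4038 FPKM in PPK sham against 4105 to 4147 FPKM in PP sham. The epithelial genes Epcam and Cd24a, whose proteins were sorted for, and Cdh1 together summed to 1096 to 1101 FPKM in PPK ADT against 1681 to 1687 FPKM in PP ADT. Itga6, the gene of the sort marker CD49F, had 33.9 and 34.4 FPKM in PPK ADT against 34.2 and 32.6 FPKM in PP ADT, and 17.9 and 16.8 FPKM in PPK sham against 25.9 and 26.6 FPKM in PP sham. No marker of any list was at 0 in all 8 libraries, and Krt5, a basal keratin gene, was at 3242 and 3243 FPKM in PPK ADT against 94.3 and 96.8 FPKM in PP ADT.

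Markers of cells outside the sort were at lower levels. The fibroblast sum was 28.8 to 30.0 FPKM in PPK ADT against 4.54 to 4.61 FPKM in PP ADT, and 17.0 to 17.7 FPKM in PPK sham against 5.55 to 5.85 FPKM in PP sham. The smooth muscle sum was 11.8 to 11.9 FPKM in PPK ADT against 1.77 to 2.31 FPKM in PP ADT, and 5.59 to 5.94 FPKM in PPK sham against 2.07 to 2.09 FPKM in PP sham. All 5 tested fibroblast and both tested smooth muscle markers were higher in PPK in ADT, where 32.5% of all genes were. Macrophage markers summed to 37.2 to 38.9 FPKM in PPK ADT against 35.9 to 40.7 FPKM in PP ADT, and to 38.7 to 39.4 FPKM in PPK sham against 15.9 to 16.6 FPKM in PP sham. Of 5 tested macrophage markers 1 was higher and 3 lower in PPK in ADT, against 32.5% and 27.1% of all genes. In sham all 5 were higher in PPK, against 13.7% of all genes. Neutrophil markers summed to 11.6 to 11.9 FPKM in PPK ADT against 4.74 to 4.79 FPKM in PP ADT, and to 4.83 to 6.28 FPKM in PPK sham against 0.471 to 0.476 FPKM in PP sham. The higher sum in PPK ADT came from S100a8 and S100a9. The other neutrophil markers, Csf3r and Ly6g, were below 1 FPKM in every library and went the other way in ADT. Csf3r averaged 0.183 FPKM in PPK ADT and 0.668 FPKM in PP ADT, and Ly6g 0 and 0.0263 FPKM. Endothelial markers summed to 0.981 to 1.07 FPKM in PPK ADT against 0.495 to 0.539 FPKM in PP ADT, and to 3.29 to 3.77 FPKM in PPK sham against 1.57 to 1.65 FPKM in PP sham. Lymphocyte markers were below 1 FPKM in every library. Stromal, macrophage and neutrophil markers were, like Mxd1, above PP in PPK sham, and the part of the cell makeup in the levels of Myc, Max and Mxd1 was not tested.

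Likeness over the 8 libraries was the Pearson correlation of log2(FPKM + 1), among 7091 genes with a mean of at least 5 FPKM. Predicted gene models (Gm and Rik names) and genes without a symbol are counted in that number but were left out of the ranking. The genes most like Myc were Crebbp (r = 0.9969), Tomm70a (r = 0.9968) and Grwd1 (r = 0.9933). Crebbp, a histone acetyltransferase gene, had 13.2 and 12.1 FPKM in PPK ADT against 7.79 and 7.31 FPKM in PP ADT. For Mxd1 they were Rgl2 (r = 0.9940), Celsr1 (r = 0.9924) and Lamb3 (r = 0.9887), and Lamb3, a laminin chain of the epithelial basement membrane, averaged 12.6 FPKM in PPK ADT, 5.28 FPKM in PP ADT, 9.02 FPKM in PPK sham and 4.96 FPKM in PP sham. For Mycl, Shkbp1 (r = 0.9886) and Pmm2 (r = 0.9880) were among them, and Pmm2, a phosphomannomutase gene of protein glycosylation, averaged 6.81 FPKM in PPK ADT, 8.34 FPKM in PP ADT, 9.78 FPKM in PPK sham and 17.3 FPKM in PP sham. The libraries form 4 groups of 2, so these correlations mostly compare group means, and they are given as a description.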

How the data were processed

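The 8 libraries came from Trizol RNA of sorted prostate epithelium and kept strand (TruSeq kit), per the labels' protocols. The authors deposited 1 table of FPKM per library. The submitters' processing notes list mm10 as genome build and FastQC 0.11.2. How reads were aligned and quantified, and with which annotation, is not given in the sources used here. Tables were joined on Ensembl identifiers, and symbols and positions came from a GRCm38 annotation that matched 55154 of 55335 identifiers. A gene was kept if 2 libraries or more reached 1 FPKM (14000 genes). For these, limma 3.58.1 (R 4.3.3) fitted log2(FPKM + 1) with a mean for each of the 4 groups and a trended variance, two-sided, with Benjamini-Hochberg adjustment over all genes (4 residual and 2.4 prior degrees of freedom). The fit was tested on simulated data. Tables were joined in Python 3.11.15 with pandas 2.3.3, and figures drawn with matplotlib 3.10.9. The members and lists were chosen with earlier results of these data known. Libraries with the same letter deviated together at -0.008 to 0.057, so letters were not used as pairs. Named were all members and further network genes, up to 4 passing genes of each list with the smallest adjusted p per comparison, and the genes most like Myc, Mycl and Mxd1 (up to 3 each). An allele shared by all groups and 1 gene are not reported here. Rrp9 and Eif4e are named as the 2 growth genes that did not pass, Shmt2 as the growth gene with the largest change, and Meiob as the highest germline gene, after their values were seen. Alternatives were a pseudocount of 0.1, no filter, a mean of at least 5 FPKM, median-of-ratios and quantile scaling, a replicate block, the compared groups alone, no trend, a 1.5-fold minimum and each library left out. The organoid experiments of the design text were not analysed here.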

Additional observations from a re-analysis of the deposited data

Results flagged for a closer look

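The genotype effect (PPK against PP) differed between ADT and sham for 6 members, by limma's test of the difference itself. The difference of the log2 effects was 1.12 for Myc (limma adjusted p = 0.000457), where both PPK ADT libraries stood above the other 6. It was 0.84 for Max (limma adjusted p = 0.00121), with the same 2 libraries high. For Mxd1 it was 0.47 (limma adjusted p = 0.000335), and there PPK was above PP at both times. For Mycl it was 0.54 (limma adjusted p = 0.012), with a log2 difference between PPK and PP of -0.34 in ADT and -0.88 in sham. The values of 0.59 for Mxi1 (limma adjusted p = 0.0383) and 0.45 for Mnt (limma adjusted p = 0.0382) did not hold under several alternatives. Of all genes tested, 52.8% had such a difference.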

How the results depend on the processing

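No value of a member changed direction among those that passed. Of 360 values with 1 library left out, 327 kept their side of the threshold, 27 lost a call and 6 gained one. Of 351 values under the other settings, 338 kept theirs and 13 lost a call. Myc, Max and Mxd1 kept their calls for PPK against PP in ADT, for ADT with age in PPK and for the difference of effects under every setting except, for Mxd1 in the difference, the 1.5-fold minimum. With the 1.5-fold minimum the members passing were 3 in ADT, 1 for ADT with age in PP, 3 for ADT with age in PPK and 3 for the difference. With 1 library left out they ranged from 3 to 7 for PPK against PP in ADT, from 1 to 3 for ADT with age in PP, from 5 to 7 for ADT with age in PPK and from 4 to 7 for the difference; for PPK against PP in sham they stayed at 2. No filter or median-of-ratios scaling gave 4 for the difference. With a replicate block 5 members passed for PPK against PP in ADT, 7 for ADT with age in PPK and 5 for the difference, where Mnt lost its call; letters were not shown to pair libraries. A single library left out of a group of 2 leaves 1, which is then assumed to vary like the other groups. Limits: the FPKM files give no depth, n is 2 per group, sham and ADT differ in age, and marker levels of several cell types moved with PPK ADT.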

Other observations

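Predicted transcripts that overlap Max and Mxd1 on the same strand were also highest in PPK ADT. They share no exonic bases with these genes. Gm47218, which overlaps Max, averaged 4.26 FPKM in PPK ADT and 1.77 FPKM in PP ADT, and 3.29 FPKM in PPK sham and 2.02 FPKM in PP sham. Gm44292, which overlaps Mxd1, averaged 3.27 FPKM in PPK ADT and 0.62 FPKM in PP ADT, and 1.77 FPKM in PPK sham and 0.799 FPKM in PP sham. Eif4e had 11.3 FPKM in PPK sham A and 4.47 FPKM in PPK sham B, while the other 6 libraries spanned 10.1 to 14.1 FPKM. These 3 genes were picked after their values were seen.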
